A study of Mus musculus with 9 samples.

Results

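ANKLE1 is an endonuclease with ankyrin repeats, a LEM domain and a GIY-YIG nuclease domain. It was examined here together with 7 other genes for structure-specific DNA nucleases and their partner subunits, namely Gen1, Mus81, Eme1, Slx4, Exo1, Fen1 and Dna2, in B.END3 cells after photodynamic therapy (PDT). The 8 genes are 8 of the 54532 genes listed in the deposited table. Ankle1 was selected on its measured values, since its level was lower in steps with the light dose in these same libraries, so its values are given as a description with no test. The other 7 genes were taken as genes of related function, with earlier results of these data known, and were tested.

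RNA sequencing covered 9 libraries, 3 of untreated cells (Ctrl), 3 of cells at a light dose of 10 J/cm2 (Ep1) and 3 of cells at 20 J/cm2 (Ep2). Ep1 and Ep2 cells were grown to a monolayer, kept for 90 min with 300 μg/mL porfimer sodium, a porphyrin photosensitizer that forms reactive oxygen species under red light, and irradiated at 635 nm and 100 mW/cm2. B.END3 is an immortalized mouse brain endothelial line, labelled as strain C57BL/6 in all groups, although the culture notes call it rat. No library of cells with photosensitizer alone or light alone was analysed here, so in a comparison with Ctrl the drug and the light cannot be told apart, and the time from irradiation to lysis is not given in the sources used here. Nothing in the labels says that replicates were separate cultures, so p-values measure the spread between these libraries, which may be technical.

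The authors expressed each gene in FPKM, the fragments of a gene relative to its length and to the total of the library, which allows levels to be compared between genes. Fragments recovered from these values totalled 16240688 to 19509225 per library, and a pair of libraries of the same group always differed by more than counting noise. The chi-square per degree of freedom was 2.7 to 4.65 in Ctrl, 3.02 to 5.25 in Ep1 and 4.64 to 13.8 in Ep2. Of 10 endothelial markers, only Egfl7 passed the filter described below (2.09 FPKM in Ctrl). Pecam1 was at 0.143 FPKM, Cdh5 at 0.857, Cldn5 at 0.0254, and Emcn was listed at 0 in Ctrl, so the labelled endothelial identity was not visible in these defining markers. Of 5 epithelial markers, Krt8 (640 FPKM), Krt18 (237 FPKM) and Krt19 (174 FPKM) were abundant in Ctrl, whereas Epcam (0.812 FPKM) and Cdh1 (0.0338 FPKM) were low. The summed level of the 5, nearly all from keratins, was 1030 to 1080 FPKM in Ctrl, 937 to 1040 in Ep1 and 1160 to 1370 in Ep2, whose part in the results below was not tested. The markers of pericytes, astrocytes, neurons and microglia each summed to at most 2.7 FPKM in every library.

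DNA that is being copied, repaired or pulled apart passes through branched shapes such as flaps, forks and four-way Holliday junctions. Structure-specific nucleases recognise the shape rather than the letters of DNA and cut it, so that chromosomes can be finished and separated. ANKLE1 and its worm counterpart LEM-3 act on chromatin bridges late in cell division. GEN1 cuts Holliday junctions, MUS81 with its partner EME1 cuts forks, flaps and nicked junctions, and SLX4 is the scaffold on which MUS81 and other nucleases assemble. FEN1 trims flaps between Okazaki fragments, DNA2 trims long flaps and resects broken ends, and EXO1 is an exonuclease of end resection and mismatch repair. Most of these proteins act in the S, G2 or M phase of the cell cycle.

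Promoter windows are shown first, because most of the 8 genes moved together and a shared letter motif is the sequence feature that could be searched in the reference. Windows from RefSeq (GRCm38.p6), of 250 bases before to 50 bases after the annotated start, were found for 7 of the 8 genes, and there was no entry for Exo1. The letters TTTGAA, known as the cell cycle homology region (CHR), were searched on both strands. So were the E2F letters TTTCCCGC, TTTCGCGC, TTTGCCGC and TTTGGCGC, and the letters CCAAT, and matches of the motifs could overlap. The 4 windows below are those of the 2 genes that were lower already in Ep1 (Ankle1 and Eme1), of Dna2, which was lower in Ep2, and of Mus81, which was not lower. Capitals mark TTTGAA or its reverse complement.
Ankle1, chr8:71405762-71406061, plus strand: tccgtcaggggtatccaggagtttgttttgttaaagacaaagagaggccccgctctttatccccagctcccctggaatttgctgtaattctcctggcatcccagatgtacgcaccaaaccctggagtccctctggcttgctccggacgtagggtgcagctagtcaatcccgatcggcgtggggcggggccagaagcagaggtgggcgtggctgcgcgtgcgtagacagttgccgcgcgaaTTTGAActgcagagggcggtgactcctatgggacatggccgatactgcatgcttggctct
Eme1, chr11:94653694-94653993, minus strand: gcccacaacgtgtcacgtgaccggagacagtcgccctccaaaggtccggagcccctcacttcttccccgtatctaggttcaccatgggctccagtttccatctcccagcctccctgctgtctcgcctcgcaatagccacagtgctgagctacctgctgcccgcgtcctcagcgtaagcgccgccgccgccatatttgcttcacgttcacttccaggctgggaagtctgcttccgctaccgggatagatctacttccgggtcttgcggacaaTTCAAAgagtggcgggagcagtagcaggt
Dna2, chr10:62946779-62947078, plus strand: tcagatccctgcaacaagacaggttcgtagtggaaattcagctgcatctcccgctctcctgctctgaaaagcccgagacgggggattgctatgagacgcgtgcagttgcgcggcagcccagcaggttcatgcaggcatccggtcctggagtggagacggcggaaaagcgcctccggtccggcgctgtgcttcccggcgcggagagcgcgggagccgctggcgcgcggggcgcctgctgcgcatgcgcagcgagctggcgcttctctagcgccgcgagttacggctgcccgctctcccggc
Mus81, chr19:5488330-5488629, minus strand: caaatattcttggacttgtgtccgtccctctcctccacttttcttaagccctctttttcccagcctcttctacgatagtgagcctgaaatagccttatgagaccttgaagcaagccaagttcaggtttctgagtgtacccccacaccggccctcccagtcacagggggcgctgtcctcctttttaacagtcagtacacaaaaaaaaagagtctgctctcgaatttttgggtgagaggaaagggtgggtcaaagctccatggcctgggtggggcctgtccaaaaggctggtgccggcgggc

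The Ankle1 window held TTTGAA in the sense direction at bases -10 to -5, counted so that the first transcribed base is 1 and the base before it is -1. The Eme1 window held it in the antisense direction at bases 22 to 27. The only other match was in the second of the 2 Fen1 windows, at bases -124 to -119. Fen1, whose windows are not shown, was not lower in Ep1 (log2 fold change 0.01). Among all 32851 windows of this length, 17.9% held TTTGAA, and 4.94% held it within 50 bases of the start. The E2F letters, present in 2.26% of all windows, were in none of the 8 windows of these genes, and CCAAT, present in 37.4%, was only in that of Slx4. The Slx4 window (chr16:4001629-4001928, minus strand) lies inside the gene as listed, whose 5' end is at 4003770. The bases before that listed start of Slx4 were thus not searched. The starts used for the Eme1 window and the first Fen1 window also lay inside the genes as listed, whose 5' ends are at 94653964 and 10204169. The Eme1 match at bases 22 to 27 is counted from the RefSeq start and lies further inside the gene as listed. These matches describe letters, not sites that are known to be used.

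Ankle1 (ENSMUSG00000046295, GRCm38 chr8:71406010-71409904, plus strand) was the second most abundant of the 8 genes in Ctrl and the least abundant in Ep2. Its level was 9.02, 9.63 and 9.03 FPKM in the Ctrl libraries, 5.97, 6.41 and 6.44 in the Ep1 libraries, and 1.52, 1.17 and 1.46 in the Ep2 libraries. The 3 groups did not overlap and formed 3 steps. The mean of 3 libraries (± SD) was 9.23 ± 0.35 FPKM for Ctrl, 6.27 ± 0.264 for Ep1, and 1.38 ± 0.186 for Ep2. Thus 68.0% of the Ctrl level was left in Ep1 and 15.0% in Ep2, and 37.7% of the whole difference in FPKM was present at the lower dose. On the log2(FPKM + 1) scale the difference from Ctrl was -0.49 in Ep1 and -2.1 in Ep2, and on this scale Ankle1 ranked second from the lowest among 11727 genes in Ep2 and 166 from the lowest in Ep1. The pseudocount of 1 understates the change of such a gene, which in FPKM was 6.68-fold lower in Ep2 than in Ctrl. The values rest on 429 to 482 fragments per library in Ctrl, 275 to 306 in Ep1 and 56 to 74 in Ep2.

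**Figure D1:**
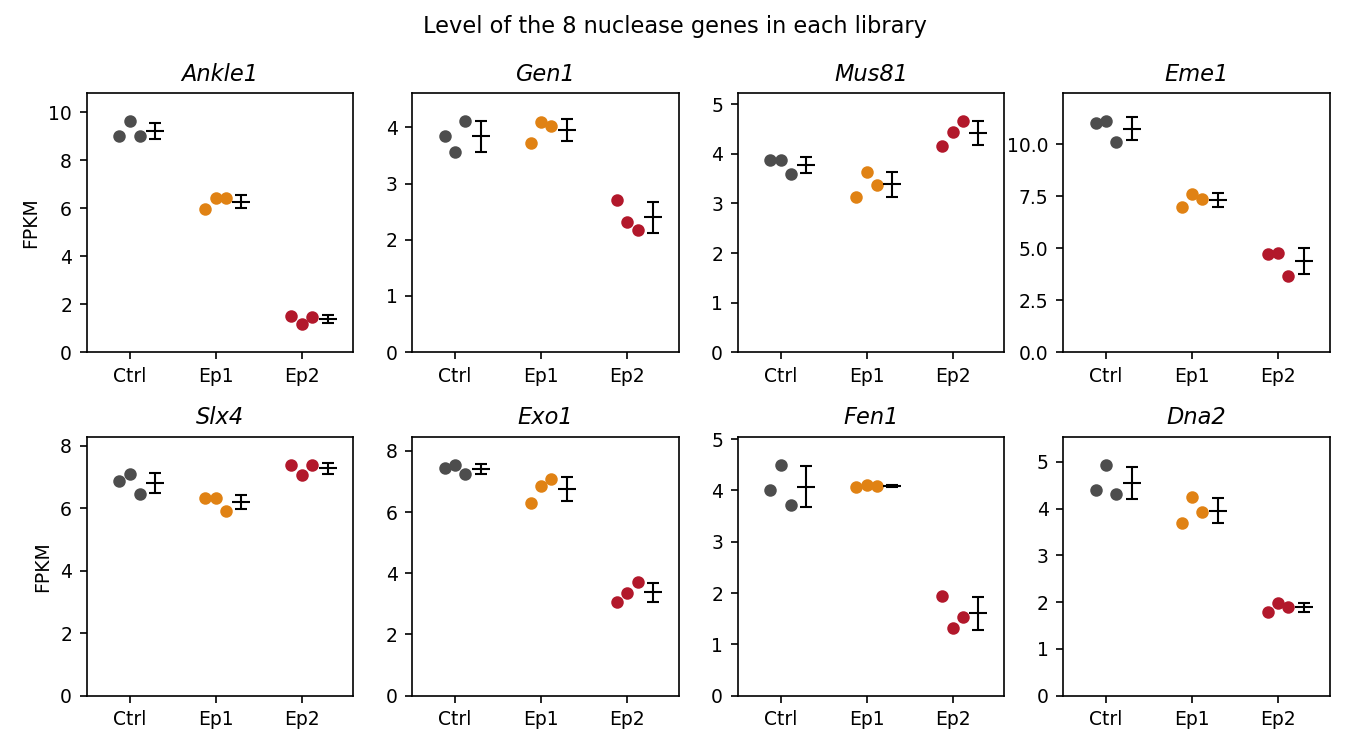
Level of each of the 8 genes in FPKM (vertical axes, each starting at 0) in the 3 Ctrl, 3 Ep1 and 3 Ep2 libraries. Points are single libraries, and the bar beside them is the mean with its SD. Ankle1 and Eme1 are lower in Ep1 and lower still in Ep2, Gen1, Exo1, Fen1 and Dna2 are lower mainly in Ep2, and Mus81 and Slx4 are not lower in Ep2.

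The next gene on the same strand, Babam1, which encodes a subunit of a BRCA1-containing complex, ends 1391 bases before Ankle1 and does not overlap it. Its mean (± SD, n = 3) was 32.5 ± 1.65 FPKM for Ctrl, 30.5 ± 1.3 for Ep1, and 21.2 ± 1.33 for Ep2. It fell in Ep2 (log2 fold change -0.59, SE 0.0578, adjusted p = 4.07e-05 in limma), whereas the value in Ep1 was -0.09 (adjusted p = 0.346).

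The comparisons below show how the transcripts of these genes differed from untreated cells at each light dose, and between the doses. Between Ep2 and Ctrl, 5 of the 7 tested genes fell and 1 rose (limma over all 11727 tested genes, adjusted p below 0.05). Among all tested genes 29.3% fell and 23.9% rose by the same rule, 53.2% in all. After median centring these shares were 25.3% and 28.2%, and in voom 24.7% and 25.3%. Of the 5 that fell, 4 were also beyond a log2 fold change of 0.6 (Eme1, Fen1, Dna2 and Exo1), against 5.87% of all tested genes on the lower side and 3.3% on the higher side. Gen1, at -0.51 in this fit, had -0.66 both with a pseudocount of 0.1 and in voom. The share of all tested genes beyond 0.6 was not taken in those fits. The genes that fell were the junction and fork subunit Eme1, the resolvase Gen1, and the flap and resection nucleases Fen1, Dna2 and Exo1. The scaffold Slx4 did not pass, and Mus81 had the small rise. The median log2 fold change of the 7 genes was -0.94, while that of all tested genes was -0.0289. In these bulk samples, fewer cells in a phase of the cycle and less RNA per cell cannot be told apart.

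Eme1 (ENSMUSG00000039055, GRCm38 chr11:94644996-94653964), the non-catalytic partner of MUS81, was the most abundant of the 8 genes in Ctrl. It had 11.0, 11.1 and 10.1 FPKM in Ctrl, 6.96, 7.6 and 7.35 in Ep1, and 4.71, 4.76 and 3.68 in Ep2. As for Ankle1, the 3 groups did not overlap. In Ep1 its log2 fold change was -0.5 (SE 0.0822, adjusted p = 0.0104), and it was the only gene of the 7 to pass at this dose. In Ep2 it was -1.13 (SE 0.0822, adjusted p = 9.41e-06), and between the doses -0.63 (adjusted p = 0.000306). Without Ctrl replicate 2 the fall in Ep1 was -0.47 with an adjusted p of 0.0527. Eme1 overlaps Lrrc59 by 221 bases and Mrpl27 by 198 bases on the opposite strand. Their log2 fold changes were 0.1 (adjusted p = 0.127) and -0.1 (adjusted p = 0.58) in Ep1, and -0.03 (adjusted p = 0.562) and -0.43 (adjusted p = 0.0106) in Ep2. Whether strand was used in counting is not given in the sources used here, so reads in overlaps of genes cannot be assigned with certainty.

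Mus81 (ENSMUSG00000024906, GRCm38 chr19:5482345-5488402), the catalytic subunit, moved differently from its partner. It had 3.87, 3.88 and 3.59 FPKM in Ctrl, 3.14, 3.63 and 3.38 in Ep1, and 4.16, 4.45 and 4.66 in Ep2. The Ep2 libraries lay above all others, while Ep1 and Ctrl overlapped. The log2 fold change was 0.18 in Ep2 (SE 0.0625, adjusted p = 0.0337), -0.13 in Ep1 (adjusted p = 0.212, 95% confidence interval -0.27 to 0.01), and 0.31 between the doses (SE 0.0625, adjusted p = 0.00352). The rise over Ctrl depended on single libraries: the adjusted p was 0.0606 without Ctrl replicate 1, 0.0588 without Ctrl replicate 2, 0.104 without Ctrl replicate 3, 0.0503 without Ep1 replicate 3, 0.0797 without Ep2 replicate 2 and 0.103 without Ep2 replicate 3. The higher level in Ep2 than in Ep1 passed in each of the 15 alternative fits that tested Mus81.

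The ratio of Eme1 to Mus81, taken within each library from values per length, showed the shift between the partners. It was 2.85, 2.85 and 2.81 in Ctrl, 2.21, 2.09 and 2.17 in Ep1, and 1.13, 1.07 and 0.791 in Ep2. The 3 groups did not overlap. The mean ratio (± SD, n = 3) was 2.84 ± 0.0261 for Ctrl, 2.16 ± 0.0609 for Ep1, and 0.997 ± 0.182 for Ep2. A ratio within a library shows unequal change of the transcripts, and it says nothing on the amount of protein complex. The ratio is uncertain to the extent that reads in the overlaps of Eme1 with Lrrc59 and Mrpl27 were shared.

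**Figure D2:**
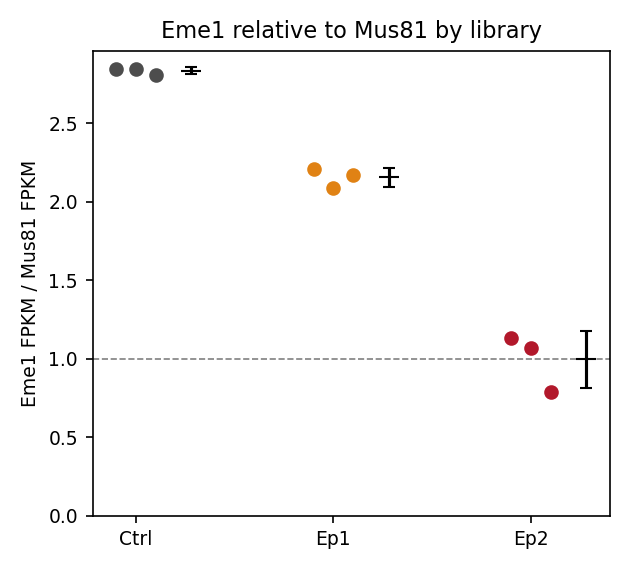
Ratio of Eme1 FPKM to Mus81 FPKM (vertical axis, from 0) in each library, by group. Points are single libraries, the bars are mean and SD, and the dashed line marks equal levels. The ratio is about 2.84 in all Ctrl libraries and lies around the dashed line in Ep2.

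Slx4 (ENSMUSG00000039738, GRCm38 chr16:3979105-4003770), the scaffold, stayed in a narrow range. It had 6.87, 7.1 and 6.46 FPKM in Ctrl, 6.33, 6.34 and 5.92 in Ep1, and 7.37, 7.06 and 7.39 in Ep2. The Ep1 libraries were below all others, and Ep2 overlapped Ctrl. Neither dose passed against Ctrl, with a log2 fold change of -0.12 in Ep1 (adjusted p = 0.158, 95% confidence interval -0.23 to -0.0) and 0.08 in Ep2 (adjusted p = 0.19, 95% confidence interval -0.03 to 0.20). Between the doses Slx4 was 0.2 higher in Ep2 (SE 0.0507, adjusted p = 0.0101). With Eme1, Ankle1 and Exo1 at lower levels there, Slx4 was the most abundant of the 8 genes in Ep2.

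Gen1 (ENSMUSG00000051235, GRCm38 chr12:11238920-11265801), the Holliday junction resolvase, had the smallest of the 5 falls. It had 3.84, 3.57 and 4.11 FPKM in Ctrl, 3.73, 4.1 and 4.02 in Ep1, and 2.7, 2.32 and 2.17 in Ep2. Ep1 overlapped Ctrl, and Ep2 lay below both. Compared to Ctrl, Gen1 differed on the log2 scale by 0.03 at the lower dose (adjusted p = 0.807, 95% confidence interval -0.13 to 0.20) and -0.51 in Ep2 (SE 0.074, adjusted p = 0.000363). The neighbour Smc6, which starts 85 bases away on the opposite strand and encodes a subunit of the SMC5/6 complex, differed from Ctrl by 0.03 in Ep2 (adjusted p = 0.718).

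Fen1, Dna2 and Exo1, which trim and resect DNA ends, had nearly equal falls in Ep2 on the log2(FPKM + 1) scale. With a pseudocount of 0.1 their log2 fold changes compared to Ctrl were further apart, at -1.3, -1.22 and -1.11. Fen1 (ENSMUSG00000024742, GRCm38 chr19:10199132-10204169) had 4.0, 4.5 and 3.71 FPKM in Ctrl, 4.07, 4.11 and 4.09 in Ep1, and 1.95, 1.32 and 1.54 in Ep2. The Ep1 libraries lay within the Ctrl range and the Ep2 libraries below it. Compared to Ctrl, Fen1 had a log2 fold change of 0.01 at the lower dose (adjusted p = 0.961, 95% confidence interval -0.20 to 0.21) and -0.97 in Ep2 (SE 0.0914, adjusted p = 3.39e-05). Between the doses the log2 fold change was -0.97 (adjusted p = 5.16e-05). The Fen1 values rest on 60 to 213 fragments per library, and 3253 of the 5038 bases of the gene overlap Gm10143 on the opposite strand. Gm10143 itself was under the filter, with a mean of 0.262 FPKM for Ctrl, 0.278 for Ep1, and 0.089 for Ep2. Tmem258, which overlaps Fen1 by 156 bases on the opposite strand, differed from Ctrl by -0.38 on the log2 scale in Ep1 (adjusted p = 0.0727) and fell in Ep2 (-0.37, adjusted p = 0.0257). The level of Fen1 is uncertain to the extent that reads in these overlaps were shared.

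Dna2 (ENSMUSG00000036875, GRCm38 chr10:62947026-62974185) had 4.39, 4.94 and 4.31 FPKM in Ctrl, 3.7, 4.25 and 3.93 in Ep1, and 1.79, 1.98 and 1.9 in Ep2. Compared to Ctrl, Dna2 had a log2 fold change of -0.16 at the lower dose (adjusted p = 0.147) and -0.94 in Ep2 (SE 0.0671, adjusted p = 8.36e-06). Exo1 (ENSMUSG00000039748, GRCm38 chr1:175880581-175913489) had 7.43, 7.55 and 7.24 FPKM in Ctrl, 6.31, 6.85 and 7.09 in Ep1, and 3.07, 3.36 and 3.7 in Ep2, with a log2 fold change of -0.12 at the lower dose (adjusted p = 0.251) and -0.94 in Ep2 (SE 0.0642, adjusted p = 6.72e-06). For Dna2 and Exo1 the 3 groups did not overlap, but the step from Ctrl to Ep1 did not pass the test. Their 95% confidence intervals in Ep1 were -0.31 to -0.01 for Dna2 and -0.26 to 0.03 for Exo1. Between the doses Dna2 changed by -0.78 (adjusted p = 3.28e-05) and Exo1 by -0.83 (adjusted p = 1.99e-05).

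Between Ep1 and Ctrl, 1 of the 7 genes fell (Eme1) and 0 rose, against 4.97% and 6.32% of all tested genes, 11.3% in all. Beyond a log2 fold change of 0.6 there was none of the 7, against 0.222% of all tested genes on the lower side and 0.571% on the higher side. At an unadjusted p below 0.05 in limma there were 3 lower and 0 higher, and voom, applied to the recovered fragments, also called 1 gene. Between Ep2 and Ep1, which by the labels differ in light dose only, 5 of the 7 genes fell and 2 rose (Mus81 and Slx4), against 25.2% and 18.8% of all tested genes, 44.0% in all. Beyond 0.6, 4 were lower (Eme1, Fen1, Dna2 and Exo1) and 0 higher, against 3.97% and 1.94% of all tested genes. Gen1 had -0.54 here, -0.7 with a pseudocount of 0.1 and -0.68 in voom, while Eme1 had -0.57 after median centring. Over all tested genes this comparison had 2206 higher and 2950 lower, or 2974 higher and 2383 lower after median centring, whereas the 5 falls and 2 rises of the nuclease genes were the same genes in both fits. The comparisons with Ctrl share the Ctrl libraries, so their values are given side by side and not as separate evidence.

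**Figure D3:**
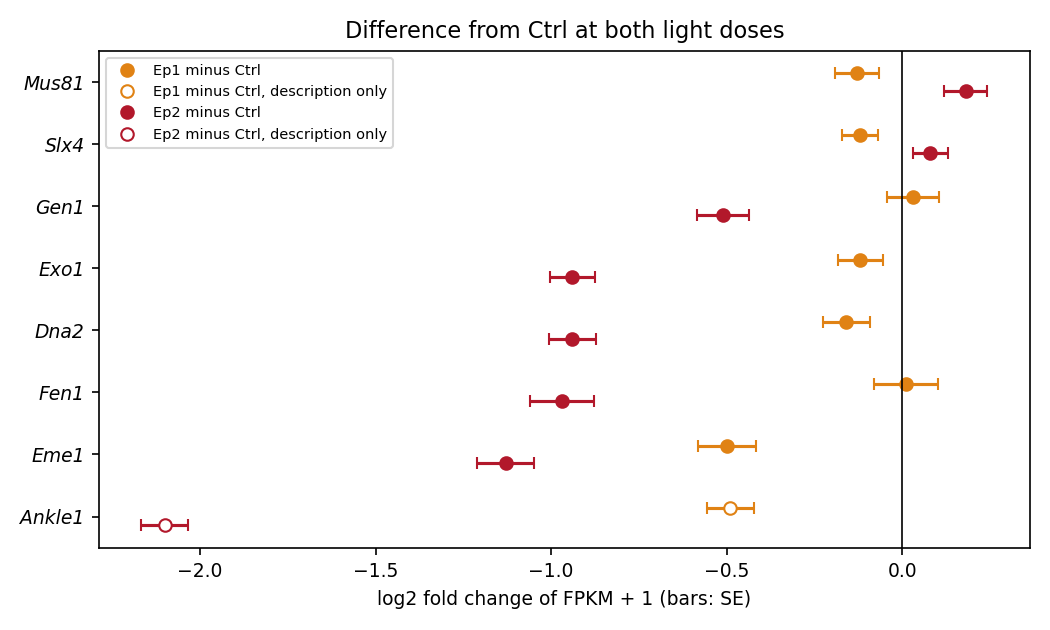
Log2 fold change of FPKM + 1 compared to Ctrl (horizontal axis) for each gene in Ep1 (orange) and Ep2 (red), with SE from the fit over all libraries. Filled points were tested, and open points are Ankle1, which was chosen for this pattern. In Ep2 the values run from -2.1 for Ankle1 to 0.18 for Mus81, and in Ep1 only Eme1 and Ankle1 lie near -0.5.

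In the order of levels per length, Ctrl cells had Eme1 (10.7 FPKM), Ankle1 (9.23), Exo1 (7.4) and Slx4 (6.81) at the top, and the library ranges of these neighbours did not overlap. Dna2 (4.55), Fen1 (4.07), Gen1 (3.84) and Mus81 (3.78) followed, each overlapping the next. The places of Fen1 and Eme1 in each group are uncertain to the extent that reads in their overlaps with other genes were shared. In Ep1, Eme1, Exo1, Ankle1 and Slx4 overlapped each neighbour, between 7.3 and 6.2 FPKM. In Ep2 the order was Slx4 (7.28), Mus81 (4.42), Eme1 (4.39), Exo1 (3.37), Gen1 (2.4), Dna2 (1.89), Fen1 (1.61) and Ankle1 (1.38). The ranges of Mus81, Eme1 and Exo1 overlapped their neighbours there, as did those of Dna2, Fen1 and Ankle1. Mus81 had thus moved from the last place to the second and Ankle1 from the second to the last.

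The nearest genes to Ankle1 were taken by the Euclidean distance of log2(FPKM + 1) values, centred by gene, over the 9 libraries, among all tested genes. They were Dnph1 (distance 0.61), which hydrolyses a modified nucleotide, Chtf18 (0.73), a subunit of an alternative clamp loader, Recql4 (0.76), a DNA helicase of replication, Psrc1 (0.94), a spindle protein, and Pold2 (0.95), a subunit of DNA polymerase delta. Their Pearson correlations with Ankle1 over the 9 libraries were 0.98 to 1.0, over libraries that fall into 3 separate groups. The mean of Dnph1 was 38.7 FPKM for Ctrl, 32.4 for Ep1, and 11.0 for Ep2, and Recql4 had 10.7, 8.0 and 3.04. The log2 fold changes of the 5 genes compared to Ctrl were -0.38 to -0.17 in Ep1 and -1.73 to -1.36 in Ep2. The choice by likeness to Ankle1 used these same libraries, so the values are a description. None of the 7 other nuclease genes was among them: the closest, Fen1 and Eme1, had distances of 1.41 and 1.43.

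**Figure D4:**
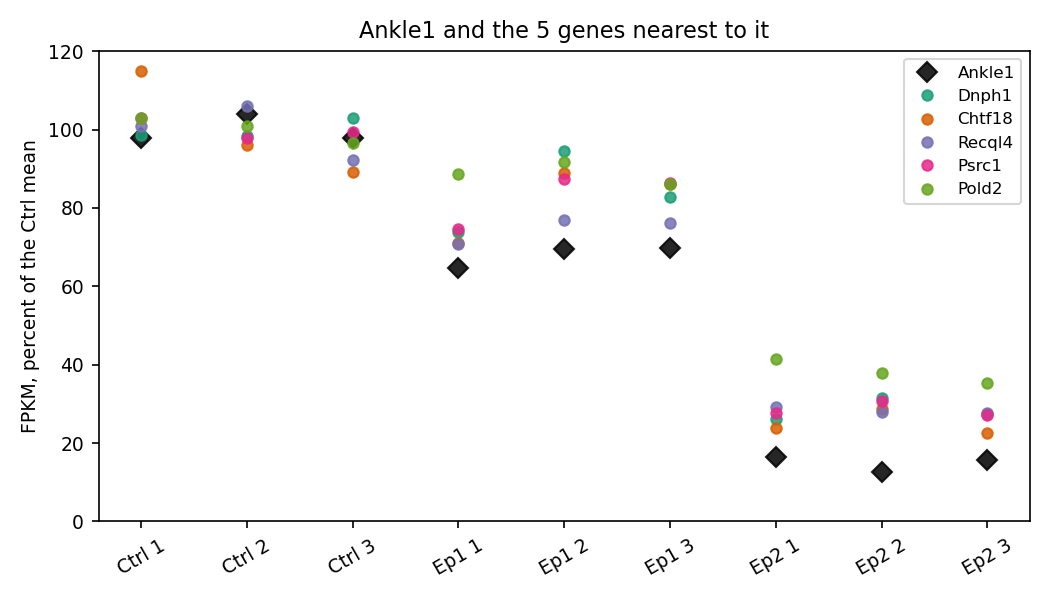
Level of Ankle1 (black diamonds) and of the 5 genes nearest to it in each library (horizontal axis), in percent of the mean of the gene over Ctrl libraries (vertical axis, from 0). Ankle1 lies at 64.7% to 69.8% in Ep1 and 12.7% to 16.4% in Ep2, below the other 5 genes in each of the 6 treated libraries.

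Other genes of nuclease pathways were taken from lists by function. Of 15 further structure-specific nucleases and subunits, 14 passed the filter and 3 fell and 0 rose in Ep2, beside 29.3% and 23.9% of all tested genes. At an unadjusted p below 0.05 there were 4 lower and 0 higher, and voom called 4 lower and 0 higher of 15. The genes that fell were Mre11a (log2 fold change -0.49, adjusted p = 0.00131), the nuclease of a complex that opens broken ends, Slx1b (-0.26, adjusted p = 0.0415), the GIY-YIG partner of SLX4, and Mgme1 (-0.25, adjusted p = 0.00407), a mitochondrial exonuclease. Slx1b had 0.909 to 1.06 FPKM in Ep2 and met the filter through the Ctrl libraries (1.22 to 1.56 FPKM), so its call is no support for the count. The positive value with the smallest p was that of Wrn (0.08, adjusted p = 0.384). Values for the excision repair nucleases Ercc1 (-0.08), Ercc4 (-0.11) and Ercc5 (0.06), for Eme2 (-0.06), the other MUS81 partner, and for Fan1 (0.07) did not pass. The median of the 14 genes was -0.07, against -0.94 for the 7 genes above. Slx1b, of the same GIY-YIG type as ANKLE1, had 1.35 FPKM in Ctrl and 0.96 in Ep2.

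Genes for proteins that work beside these nucleases at replication forks formed further lists, whose counts in Ep2 stand beside 29.3% lower, 23.9% higher and 5.87% lower beyond 0.6 among all tested genes. Of 12 partners in Okazaki fragment maturation, 10 fell and 1 rose in Ep2, with a median of -0.69. Past 0.6 were Pold2 (-1.36) and Pold1 (-1.22), subunits of DNA polymerase delta, the ligase Lig1 (-0.86), the single-strand binding proteins Rpa2 (-0.79) and Rpa1 (-0.7), and the RNase H2 subunits Rnaseh2a (-0.73) and Rnaseh2c (-0.68). The exception was Pold4, the small subunit of polymerase delta, which rose by 0.44 (adjusted p = 0.00192). Of 11 helicases and dissolution factors, 7 fell and 0 rose (0 also by voom and at an unadjusted p below 0.05), with Recql4 (-1.53), Rtel1 (-0.84) and Brip1 (-0.72) past 0.6, and Rmi1 had the positive value with the smallest p (0.01, adjusted p = 0.902). The 7 include Rmi2, which had 0.404 to 0.589 FPKM in Ep2 and passed the filter through Ctrl and Ep1 libraries, so its call is no support for the count. Blm, the helicase that dissolves Holliday junctions without a cut, fell by 0.43 on the log2 scale (adjusted p = 0.000617), whereas its partner Top3a had -0.0 (adjusted p = 0.998).

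ANKLE1 shares its LEM domain with proteins of the inner nuclear membrane. A list of 8 genes held LEM proteins, BAF, the chromatin protein they bind, which is encoded by Banf1, and Vrk1, a kinase that phosphorylates BAF. Of these, 7 passed the filter, and in Ep2 3 fell (Tmpo, Banf1 and Vrk1) and 2 rose (Lemd2 and Lemd3), beside 29.3% lower and 23.9% higher among all tested genes. Tmpo (-0.49, adjusted p = 0.000138) had the smallest p of those that fell, and Lemd2 (0.3, adjusted p = 0.000914) of those that rose. Ankle2, the paralog in name, had 12.1 FPKM in Ctrl and 11.1 in Ep2 (-0.12, adjusted p = 0.0838). A list of 10 genes held DNases outside this class and Dffa, which encodes an inhibitor of a DNase. Of these, 8 passed the filter, of which 4, Dffa among them, fell and 0 rose beside the same shares (0 also by voom and at an unadjusted p below 0.05). Apex1, the main base excision endonuclease, was the only one past 0.6 (-1.04). Of 7 kinases, cyclins and adaptors that control these nucleases, 6 fell and 0 rose, again beside 29.3% and 23.9% (0 also by voom and at an unadjusted p below 0.05). Plk1 (-1.13), Pkmyt1 (-0.71), Cdk1 (-0.68) and Ccnb1 (-0.64) were past 0.6, as were 5.87% of all tested genes on the lower side. In Ep1 the genes of the lists above that passed were Recql4 (-0.38, adjusted p = 0.00917) and Pold1 (-0.25, adjusted p = 0.0261), which fell, and Lemd3 (0.21, adjusted p = 0.0291), which rose. At that dose 4.97% of all tested genes fell and 6.32% rose.

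Markers of the cell cycle were also lower in Ep2. All 12 S phase markers and all 12 G2/M markers fell in Ep2, with medians of -0.94 and -0.86 beside -0.94 for the 7 nuclease genes. Among all tested genes 29.3% fell, and 5.87% fell beyond 0.6. Past 0.6 were Mcm2, Mcm5, Cdc6, Gins2, Rrm2, Tyms and Uhrf1 among the S phase markers, and Mki67, Top2a, Ccna2, Aurkb, Cdc20, Bub1b, Kif2c, Tpx2 and Hmmr among the G2/M markers. The summed S phase level was 547 to 571 FPKM for Ctrl, 534 to 561 for Ep1, and 276 to 306 for Ep2, and the summed G2/M level 618 to 639, 579 to 645 and 322 to 343. The part of these markers in the falls of Ep2 was not tested. In Ep1, 0 of 12 S phase markers passed in either direction (3 lower and 2 higher at an unadjusted p below 0.05, and 1 lower and 1 higher by voom). Of the 12 G2/M markers, 1 fell (Kif2c, -0.26, adjusted p = 0.0354), and the medians of the 2 lists were -0.02 and 0.01. These counts stand beside 4.97% of all tested genes that fell in Ep1 and 6.32% that rose. The part of these markers in the levels of Eme1 and Ankle1 in Ep1 was not tested.

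**Figure D5:**
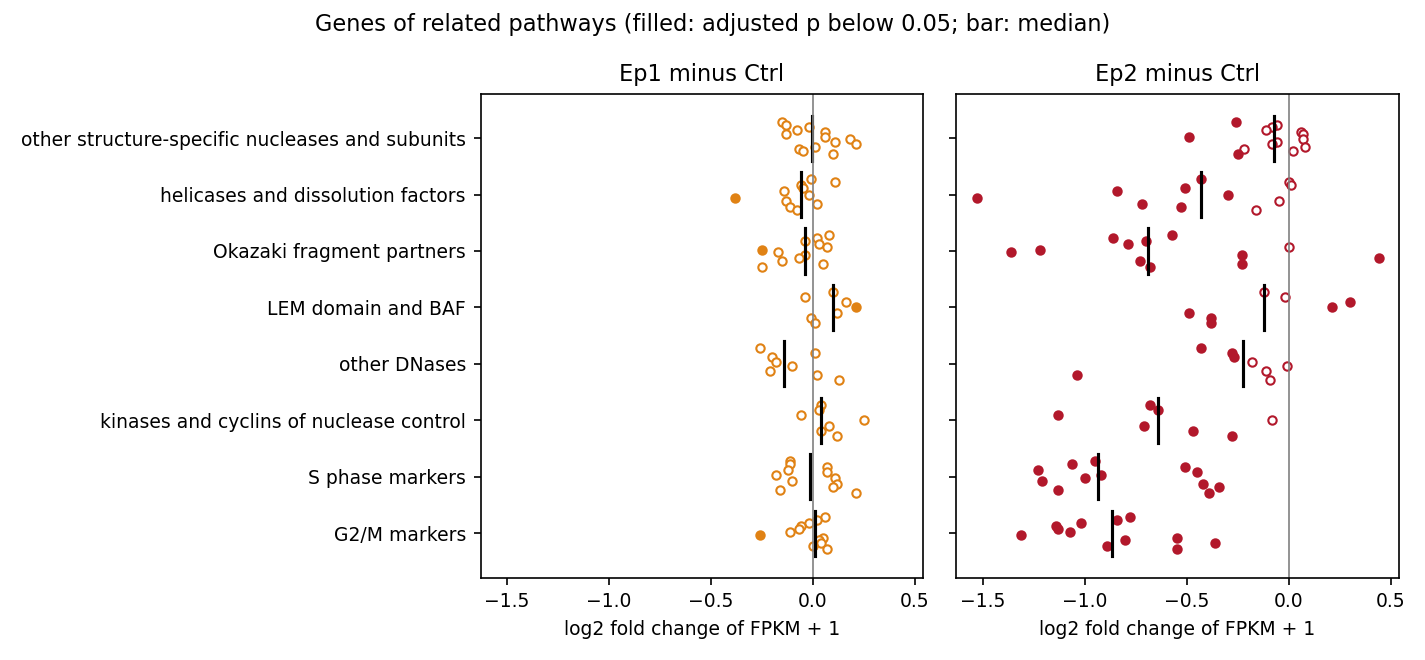
Log2 fold change of FPKM + 1 for the tested genes of 8 lists (rows) in Ep1 (left) and Ep2 (right) compared to Ctrl. Each point is a gene, filled where the adjusted p was below 0.05, and the black bar is the median of the list. In Ep1 the medians lie between -0.14 and 0.1, and in Ep2 the lists of replication partners and cell cycle markers lie furthest to the left, while that of other structure-specific nucleases has a median of -0.07.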

How the data were processed

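Total RNA of 9 libraries was sequenced in read pairs. The authors mapped them to a mouse genome and deposited an FPKM value for every gene in every library. The methods name GRCm39, and the submitters' processing notes mm8 and Bowtie 0.12.2, while the counting tool is not given in the sources used here. The listed coordinates overlapped the gene on GRCm38 for 99.9% of 37614 genes and on GRCm39 for 10.9% of 50414, so positions refer to GRCm38. The single-library tables equalled the joint table.

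FPKM multiplied by the gene length listed in the deposited table came in equal steps within each library. Dividing by the step gave fragments, whole within 0.05 for 100% of values under 1000 fragments. Genes that reached 1 FPKM in 3 or more libraries (11727) entered the test as log2(FPKM + 1) with limma 3.58.1 (R 4.3.3; lmFit, eBayes with trend and robust estimation, all 9 libraries, no covariate), with Benjamini-Hochberg adjustment over all tested genes within each comparison. The procedure was tested on simulated data. Alternatives were a pseudocount of 0.1, no filter, a minimum of 5 FPKM, median centring, a replicate block, only the groups compared, voom on the fragments (at least 10 in at least 3 libraries, 14112 genes), and the omission of each library.

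Named genes are the 8 nuclease genes, the genes within 5 kb that are described beside them, the 5 genes nearest to Ankle1, and from each list the gene with the smallest adjusted p in each direction in Ep2 and those past 0.6; other list genes were added after their values were seen. The genes, lists, tests and alternatives were chosen with earlier results of these data known. Summaries were made in Python 3.11.15 with pandas 2.3.3 and numpy 2.4.6, and plots with matplotlib 3.10.9. Protein sequences and the promoter of Exo1 were not used here. A list of mismatch repair genes is not reported here.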

Additional observations from a re-analysis of the deposited data

Results flagged for a closer look

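Mus81 and Slx4 were singled out because all 3 libraries of the lower dose lay under the Ctrl mean and all 3 of the higher dose above it. The log2 difference, Ep2 compared to Ep1, was 0.31 for Mus81 (adjusted p = 0.00352 in limma) and 0.2 for Slx4 (adjusted p = 0.0101), and it rests on the same libraries as the pattern that singled them out, so it is no separate evidence of it. Against Ctrl, only the rise of Mus81 in Ep2 passed, and that call was lost in several fits.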

How the results depend on the processing

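Of 324 values of the 7 tested genes under the alternatives, 312 kept their direction and their side of the threshold. The number of these genes that changed in Ep1 was 1, and 0 to 1 when single libraries were left out. It was 0 without Ctrl replicate 2, where limma gave 1 gene at an unadjusted p below 0.05. With a minimum of 5 FPKM, 3 of the 7 genes could be tested (Eme1, Slx4 and Exo1), and the number changed was 2 in Ep2 compared to Ctrl in place of 6, and 3 in Ep2 compared to Ep1 in place of 7. Those lower counts follow from the fewer genes tested. Without single libraries the number in Ep2 compared to Ctrl was 5 to 6. The rise of Mus81 over Ctrl was also lost without a filter (adjusted p = 0.0744). In Ep1, the sign of 2 values near 0 turned, and the cause was not tested: Gen1 had -0.01 without Ctrl replicate 2 and up to 0.07 without other libraries, and Fen1 had -0.0 with median centring, -0.01 with voom, -0.04 without Ctrl replicate 3 and up to 0.07 without other libraries. For Ankle1 the log2 difference in Ep2 ranged from -2.72 (voom) to -2.04. A replicate block left the counts at 1, 6 and 7. Same-numbered libraries of different groups had correlations of -0.056 to 0.074 in their deviations from the group means. Those with different numbers had -0.108 to 0.153. These values show no pairing by number, but with 3 libraries per group they cannot exclude it. Depth limits Ankle1 and Fen1 most, which had 56 to 74 and 60 to 90 fragments per Ep2 library.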
